A study of Homo sapiens with 14 samples.

Results

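Under bone morphogenetic protein 2 (BMP2), 6 of the 14 RNA sequencing libraries of the series fell into a late and an early expression state, and the genes that separate these states are described here. The 3 late-state libraries were BMP2 day 10 replicate 2 and BMP2 day 21 replicates 1 and 2. The 3 early-state libraries were BMP2 day 5 replicates 1 and 2 and BMP2 day 10 replicate 1. The libraries of each state were chosen by the correlation of their whole expression profiles and not by the labels, so that the genes that separate the states are a description and carry no test.

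All libraries came from NT2, a line of human embryonal carcinoma that can leave its stem-like state along several lineages. The labels name BMP2 as the agent tested for muscle induction, at 30 ng/ml at first and at 40 ng/ml later, and do not give the dose of a library. The other 8 libraries came from cells given a final 10 µM retinoic acid (RA), the neuron-inducing agent, for 5, 10 or 21 days, and from untreated cells at day 0, with 2 libraries per group. The study asked about nucleotide excision repair (NER), the pathway that cuts out bulky DNA lesions, during differentiation. No untreated culture of a later day was analysed here, so BMP2 and time in culture cannot be told apart.

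BMP2 is a secreted ligand of the TGF-beta superfamily that signals through SMAD proteins to genes such as the ID and DLX families. Pluripotent human cells given BMP ligands are known to take on trophoblast-like, amnion-like or mesodermal expression. Leaving the cell cycle, with CDK inhibitors high and mitotic genes low, is a common step of later differentiation and of senescence, and fibroblast-like cells are known for collagens and small leucine-rich proteoglycans.

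Libraries held 45773278 to 75754396 counts, and 19142 genes were tested. Values are CPM, counts scaled to library size but not to gene length, so levels of different genes are not compared. The values of the late-state libraries follow the order day 10 replicate 2, day 21 replicate 1, day 21 replicate 2. Those of the early-state libraries follow the order day 5 replicate 1, day 5 replicate 2, day 10 replicate 1. The 2 libraries labelled BMP2 day 10 fell into different states, and an exchange of samples or labels, a slower culture and another dose cannot be told apart here. For RA day 21 the replicate numbers in titles and descriptions differ, and those of the titles are given. The labels do not say whether replicates were separate cultures, so p-values measure the spread between these libraries, which may be technical. In bulk RNA, fewer cells of a type and less RNA per cell cannot be told apart.

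The 3 markers given for the states separated them without overlap. NES encodes nestin, an intermediate filament of neural progenitors and other immature cells. It had 60.4, 11.9 and 19.4 CPM in the late state, against 614, 914 and 862 CPM in the early state. The lowest early-state library was 10.2-fold above the highest late-state library. CDKN1A encodes p21, a CDK inhibitor induced by p53, and its order was the opposite one. It had 466, 289 and 496 CPM in the late state, against 17.0, 10.6 and 11.1 CPM in the early state, with 17.0-fold between the nearest libraries. LUM encodes lumican, a small leucine-rich proteoglycan of collagen matrix. It had 677, 4800 and 4380 CPM in the late state, against 170, 219 and 189 CPM in the early state. For LUM, BMP2 day 10 replicate 2 lay between the early-state libraries and those of day 21.

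**Figure D1:**
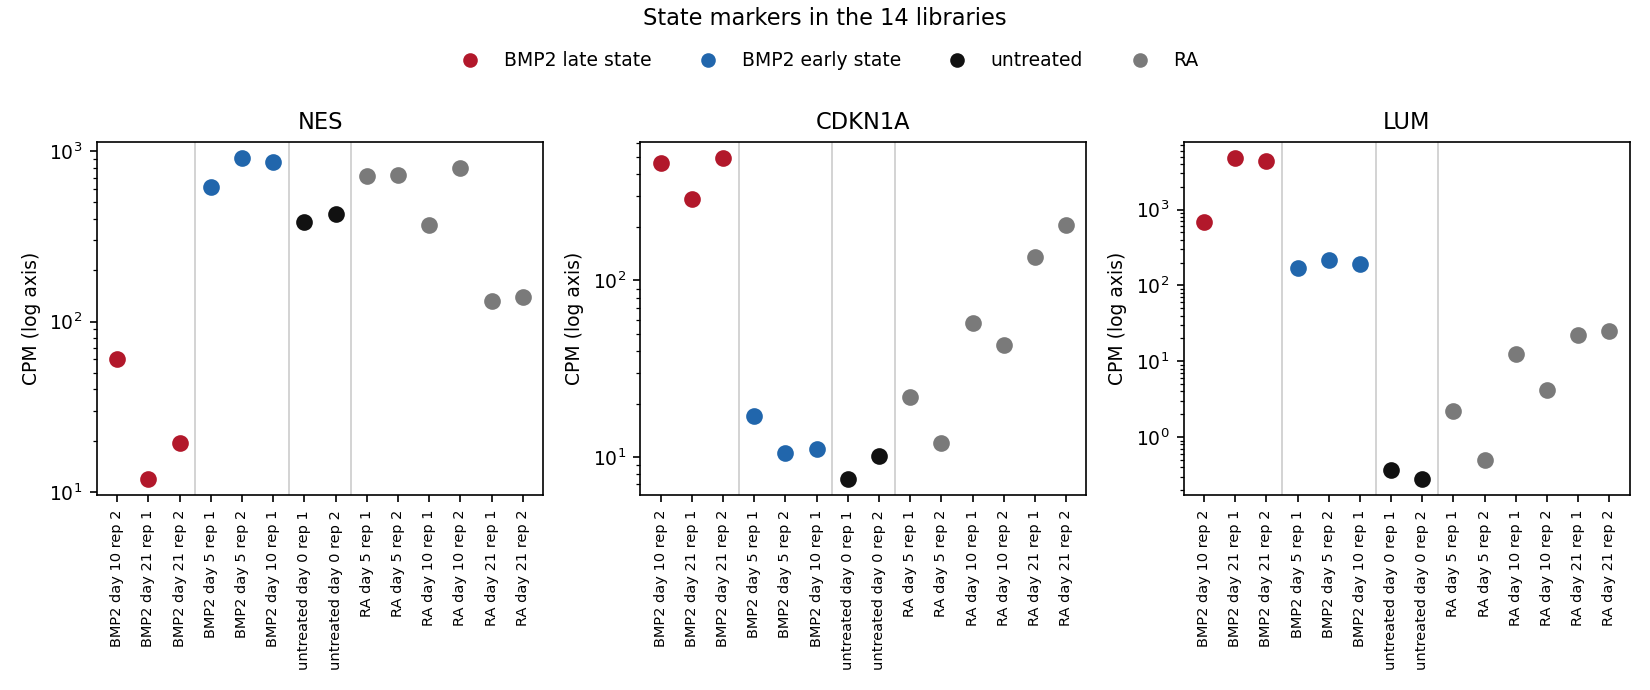
CPM of NES, CDKN1A and LUM on log axes, with 1 point per library. The 3 late-state libraries are on the left of each panel, next to the 3 early-state libraries, followed by untreated and RA libraries. NES is lowest in the late state, at 11.9 to 60.4 CPM, while CDKN1A and LUM are highest there.

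RA day 21 against RA day 5 compares none of the 6 libraries, although they enter the shared estimate of the spread, and gives a test of the same markers in another treatment. LUM had 21.9 and 25.1 CPM at RA day 21, against 2.18 and 0.496 CPM at RA day 5, a log2 fold change of 4.17 ± 0.79 (SE, 2 libraries a group, edgeR adjusted p = 0.00495). NES had 133 and 140 CPM at RA day 21, against 713 and 722 CPM at RA day 5. Its log2 fold change of -2.40 ± 0.88 missed the threshold of 0.05 (edgeR adjusted p = 0.0651) and passed it with both BMP2 day 10 libraries left out of the shared spread (edgeR adjusted p = 0.000724). CDKN1A had 136 and 206 CPM at RA day 21, against 21.9 and 11.9 CPM at RA day 5. Its log2 fold change was 3.34 ± 1.16 (edgeR adjusted p = 0.0552, and 0.000343 without both BMP2 day 10 libraries).

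The rule that placed the day 10 libraries is a correlation over the log2 CPM of the 19142 genes. BMP2 day 10 replicate 2 correlated at 0.963 and 0.966 with the day 21 libraries, and at 0.943 and 0.920 with those of day 5. BMP2 day 10 replicate 1 correlated at 0.915 and 0.905 with the day 21 libraries, and at 0.969 and 0.981 with those of day 5. The 2 replicates of BMP2 day 10 correlated at 0.918 with each other.

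A position was computed for each day 10 library over 1058 genes, with 0 at the mean of day 5 and 1 at the mean of day 21. These genes had day 21 and day 5 libraries that did not overlap, means at least 4-fold apart, and at least 5 CPM in the higher day. The median position of replicate 2 was 0.77, with quartiles of 0.59 and 0.99. The median position of replicate 1 was -0.03, with quartiles of -0.16 and 0.10. Neither day 10 library therefore sat midway over these genes, and replicate 2 fell short of day 21 for most of them. Replicate 2 lay past day 21 for 258 genes, or 24.4%. It lay at or under 0.25 for 61 genes. These were 54 of the 678 genes higher at day 21 and 7 of the 380 lower at day 21. Replicate 1 reached 0.75 for 3 genes, SYT9, CENPE and ASPM.

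**Figure D2:**
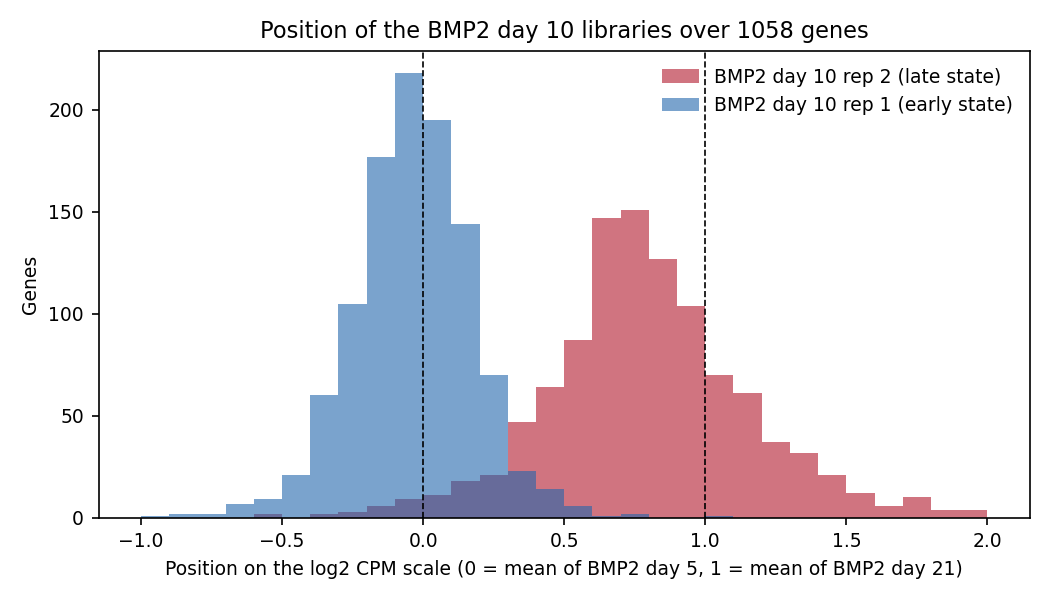
Histogram of the position of BMP2 day 10 replicates 2 and 1 over 1058 genes, on a log2 CPM scale where 0 is the mean of BMP2 day 5 and 1 the mean of BMP2 day 21. Replicate 2 has its median at 0.77 and replicate 1 at -0.03.

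The genes that lagged in BMP2 day 10 replicate 2 included matrix genes. OGN, which encodes osteoglycin, had 0.939, 58.8 and 61.0 CPM in the late state, against 0.381, 0.535 and 0.497 CPM in the early state. FMOD, which encodes fibromodulin, had 1.34, 131 and 35.6 CPM in the late state, against 0.495, 2.17 and 3.12 CPM in the early state. The day 10 late-state library was near the early-state level for both. HGF, hepatocyte growth factor, had 0.224, 17.7 and 9.70 CPM in the late state, against 0.190, 1.46 and 1.61 CPM in the early state. F5, coagulation factor V, had 2.12, 82.2 and 76.2 CPM in the late state, against 1.90, 2.42 and 2.48 CPM in the early state. OGN lies wholly within the span of CENPP, so its reads may have been split by the counting.

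ACTC1 and MYL7, both of cardiac muscle, were among the 7 genes lower at day 21 that lagged in replicate 2. ACTC1, cardiac actin, had 357, 20.9 and 19.4 CPM in the late state, against 1760, 272 and 301 CPM in the early state. MYL7, an atrial myosin light chain, had 43.9, 5.69 and 4.03 CPM in the late state, against 57.3, 23.4 and 25.8 CPM in the early state. In both, the day 10 late-state library was inside or above part of the early-state range, and day 5 replicate 1 was the highest library of all 6.

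The states were then compared gene by gene. At least 2-fold between the nearest libraries separated 920 genes that were higher in the late state, 4.81% of those tested, and 810 that were lower, 4.23%. Of these, 337 higher and 274 lower genes were at least 4-fold apart, and 55 and 30 were at least 16-fold apart. Without any fold, the libraries did not overlap for 4178 higher genes (21.8%) and 4038 lower genes (21.1%). List counts without overlap below are to be set against these 2 shares, and list counts at 2-fold against 4.81% and 4.23%. This does not hold for counts with libraries left out.

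The 10 widest gaps among genes that were higher in the late state included C3, CFI, PSMB8 and TRIM22. C3, the central complement component, had 104, 307 and 299 CPM in the late state, against 0.951, 1.04 and 0.852 CPM in the early state. CFI, the protease that inactivates C3b, had 2.08, 96.9 and 76.8 CPM in the late state and no count in the early state. PSMB8, a subunit of the immunoproteasome, had 12.6, 10.9 and 18.7 CPM in the late state and no count in the early state. With 3 counts over the early-state libraries as the floor, the late-state means were at least 3400-fold higher for CFI and at least 810-fold higher for PSMB8. TRIM22, an interferon-induced ubiquitin ligase, had 119, 100 and 178 CPM in the late state, against 1.07, 1.59 and 1.74 CPM in the early state. It lies within the span of TRIM5, so its counts are uncertain. TMEM151A and LINC00968, a long noncoding RNA, were also among the 10 widest, as were the interferon response genes IFI44, OAS1 and OAS2. IFI44 had 139, 20.9 and 114 CPM in the late state, against 0.0381, 0 and 0 CPM in the early state. CFI also changed under RA, with 740 and 661 CPM at RA day 21, against 0.305 and 0.233 CPM at RA day 5 (log2 fold change 11.35 ± 1.74, edgeR adjusted p = 0.00296).

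The 10 widest gaps among genes that were lower in the late state included VTCN1, GRHL2, LIN28A and WNT6. VTCN1, an immune checkpoint ligand expressed in amnion and trophoblast, had 0.134, 0.718 and 0.210 CPM in the late state, against 43.6, 167 and 189 CPM in the early state. GRHL2, a transcription factor of epithelia, had 0.313, 0.698 and 0.0420 CPM in the late state, against 24.9, 58.0 and 55.5 CPM in the early state. LIN28A, an RNA-binding protein of stem cells that blocks let-7 maturation, had 4.29, 5.79 and 13.2 CPM in the late state, against 445, 533 and 582 CPM in the early state. WNT6, a WNT ligand, had 0.179, 0.287 and 0 CPM in the late state, against 9.46, 24.6 and 23.7 CPM in the early state. VIL1, SHD, RHBG, WFIKKN1, EYA2 and C1orf105 completed the 10. For VTCN1, GRHL2 and WNT6, day 5 replicate 1 was the lowest of the early-state libraries, while every late-state library was under 1 CPM.

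The 17 genes of the interferon response list were all higher in every late-state library than in any early-state one, and 13 of them by at least 2-fold. Across all genes tested, 21.8% were higher without overlap. These genes are induced by type I interferon, and many act against viral RNA. The list median of the late minus early difference was 5.30 on the log2 CPM scale, against -0.01 over all genes tested. MX1, a GTPase that blocks viral replication, had 712, 54.4 and 319 CPM in the late state, against 0.761, 0.676 and 0.993 CPM in the early state. IFI44L had 431, 21.2 and 214 CPM in the late state, against 0.304, 0.189 and 0.55 CPM in the early state. The order within the late state was the same for both genes, with BMP2 day 10 replicate 2 highest and day 21 replicate 1 lowest. OAS1 and OAS2, which sense double-stranded RNA, had no count in any early-state library. OAS1 had 116, 4.78 and 65.6 CPM in the late state, at least 3600-fold above the floor by the mean. The summed level of the list was 755 to 4990 CPM in the late state and 156 to 236 CPM in the early state, so the late-state libraries differed among themselves by more than any early-state pair.

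The promoters of ISG15 and OAS3 are printed because they carry the interferon-stimulated response element, the sequence bound by interferon-activated factors, and that of CDC20 because it carries the CHR element of cell cycle promoters. Each is the 250 bases before the start from RefSeq (GRCh38.p14). ISG15 is at chr1:1013247-1013496, OAS3 at chr12:112938224-112938473 and CDC20 at chr1:43358731-43358980, all on the plus strand. Capitals mark GAAA, any 2 bases and GAAA again in ISG15 and OAS3, and TTTGAA in CDC20, on either strand, where overlapping matches are joined.
ISG15: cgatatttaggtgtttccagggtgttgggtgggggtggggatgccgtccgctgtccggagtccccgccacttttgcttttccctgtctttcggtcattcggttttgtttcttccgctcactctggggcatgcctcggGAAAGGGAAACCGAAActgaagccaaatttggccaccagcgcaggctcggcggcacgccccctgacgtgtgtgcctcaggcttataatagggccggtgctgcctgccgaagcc
OAS3: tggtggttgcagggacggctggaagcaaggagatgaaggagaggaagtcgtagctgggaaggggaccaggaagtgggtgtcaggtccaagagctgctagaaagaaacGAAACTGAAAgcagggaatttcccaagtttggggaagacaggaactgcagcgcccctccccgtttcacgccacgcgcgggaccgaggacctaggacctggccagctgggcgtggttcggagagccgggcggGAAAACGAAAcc
CDC20: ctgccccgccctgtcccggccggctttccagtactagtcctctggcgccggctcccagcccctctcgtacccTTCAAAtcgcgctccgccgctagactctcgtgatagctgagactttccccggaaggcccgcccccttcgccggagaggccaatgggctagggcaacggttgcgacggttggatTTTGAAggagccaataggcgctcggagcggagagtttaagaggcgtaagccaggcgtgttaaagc
ISG15, a ubiquitin-like modifier, had 236, 17.5 and 86.3 CPM in the late state, against 1.94, 1.51 and 1.58 CPM in the early state. OAS3 had 309, 17.0 and 102 CPM in the late state, against 3.04, 1.38 and 1.95 CPM in the early state. CDC20, which activates the anaphase-promoting complex, had 54.8, 38.5 and 24.3 CPM in the late state, against 167, 117 and 119 CPM in the early state. The response element in this spelling was found in 9 of the 12 promoters of the interferon list that the table holds, or 75%. It was found in 37 of 669 promoters of genes at least 2-fold higher in the late state (5.53%), in 10 of 554 of those lower (1.81%) and in 326 of the 13530 promoters of all tested genes (2.41%). TTTGAA was found in 8 of 23 cell cycle promoters (34.8%), against 9.51% of all tested genes. CCAAT, a motif of many promoters, was found in 19 of these 23 (82.6%), against 34.3% of all tested genes. The motifs are a description of the letters in this window.

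In RA day 21 against day 5 the list's median log2 fold change was 1.96, against 0.05 over all genes. By edgeR 0 of the 17 passed the threshold in either direction, while 5 were higher and 0 lower at an unadjusted p under 0.05. DESeq2 called 6 of the 17 higher, edgeR 8 without both BMP2 day 10 libraries and 12 in a fit of the 4 RA libraries alone, and limma 0. The main edgeR fit called 2664 of all genes higher (13.9%) and 2839 lower (14.8%). The number called higher was 3562 without both BMP2 day 10 libraries, 4450 in the 4 RA libraries alone and 3423 in DESeq2. With limma it was 2373 on log2(RPKM + 1) and 2364 on log2(RPKM + 0.1). The list counts of these fits are thus not to be set against 13.9%. IFI44 had 17.5 and 14.7 CPM at RA day 21, against 0.0407 and 0 CPM at RA day 5 (edgeR adjusted p = 0.0519, and 0.00273 without both BMP2 day 10 libraries). MX1 had 16.2 and 16.9 CPM at RA day 21, against 2.44 and 2.04 CPM at RA day 5 (log2 fold change 2.89 ± 1.78, edgeR adjusted p = 0.249). Its adjusted p was 0.0213 in edgeR without both BMP2 day 10 libraries, which had 712 and 0.993 CPM of this gene. IFI44L had 9.55 and 8.21 CPM at RA day 21, against 0.142 and 0.233 CPM at RA day 5 (log2 fold change 5.51 ± 2.39, edgeR adjusted p = 0.109, and 0.0130 without both BMP2 day 10 libraries).

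**Figure D3:**
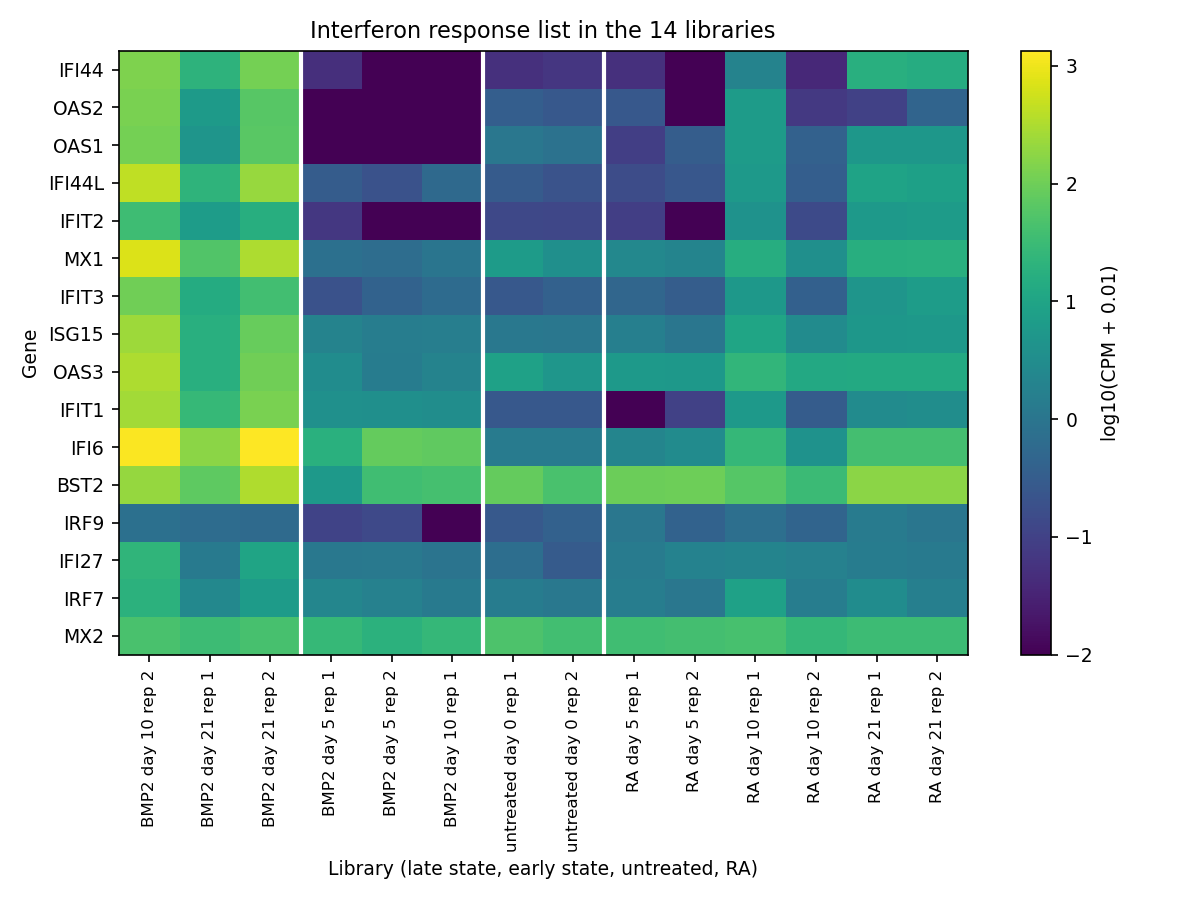
Heat map of log10(CPM + 0.01) of 16 of the 17 interferon response genes in the 14 libraries, late-state libraries first, then early-state, untreated and RA libraries. BMP2 day 10 replicate 2 and BMP2 day 21 replicate 2 are the brightest columns for MX1, with 712 and 319 CPM.

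Cell cycle genes were lower in the late state. Of the 30 tested, 29 were lower in every late-state library than in any early-state one, 14 of them by at least 2-fold, and 0 were higher. Over all genes, 21.1% were lower without overlap. The list median was -1.59 on the log2 CPM scale. PLK1, a kinase of mitotic entry, had 39.2, 24.1 and 15.4 CPM in the late state, against 142, 95.9 and 100 CPM in the early state. CDT1, which licenses replication origins, had 14.3, 9.56 and 5.52 CPM in the late state, against 51.2, 34.8 and 36.0 CPM in the early state. FOXM1, a transcription factor of mitotic genes, had 59.7, 51.1 and 28.2 CPM in the late state, against 238, 145 and 163 CPM in the early state. In all 3 genes day 21 replicate 2 was the lowest library and day 5 replicate 1 the highest. The exception was CENPE, a kinetochore motor, with 24.1, 18.3 and 11.8 CPM in the late state, against 78.1, 53.1 and 14.6 CPM in the early state. The 14.6 CPM are those of BMP2 day 10 replicate 1, in which ASPM, a spindle protein, was also low at 75.1 CPM, against 250 and 200 CPM in the day 5 libraries. In that library, 2864 genes with 30.2% to 41.6% GC were lower by a median of -0.20 on the log2 scale than in the other 2 early-state libraries, and the part of this in the values was not tested.

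The cell cycle list also fell under RA, with 29 of 30 genes called lower, against 14.8% of all genes. Fewer were called when any 1 of the 4 RA libraries was left out. PLK1 had 43.6 and 38.2 CPM at RA day 21, against 222 and 217 CPM at RA day 5 (log2 fold change -2.42 ± 0.39, edgeR adjusted p = 0.00292). CDT1 had 14.9 and 16.8 CPM at RA day 21, against 83.9 and 80.0 CPM at RA day 5 (log2 fold change -2.37 ± 0.40, edgeR adjusted p = 0.00335). CDC20 had 55.8 and 51.6 CPM at RA day 21, against 281 and 278 CPM at RA day 5 (log2 fold change -2.38 ± 0.34, edgeR adjusted p = 0.00202). These 3 calls held without any 1 library.

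Of 8 CDK inhibitors, 4 were higher and 2 lower in the late state without overlap, against 21.8% and 21.1% of all genes. At 2-fold between the nearest libraries, 4 were higher and 0 lower, against 4.81% and 4.23% of all genes. CDKN2A, which encodes p16 and ARF, had 57.1, 83.7 and 158 CPM in the late state, against 3.39, 2.03 and 1.40 CPM in the early state. CDKN2C, which encodes p18, had 4.25, 5.73 and 4.05 CPM in the late state, against 0.951, 1.10 and 1.38 CPM in the early state. CDKN3, a phosphatase that is itself expressed with mitotic genes, had 3.91, 4.97 and 3.30 CPM in the late state, against 14.8, 9.70 and 9.92 CPM in the early state. Under RA, CDKN2C had 5.87 and 6.25 CPM at day 21, against 1.10 and 0.846 CPM at day 5 (log2 fold change 2.64 ± 0.50, edgeR adjusted p = 0.00489).

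Of 20 p53 target genes, 16 were higher in the late state without overlap, 6 of them by at least 2-fold, and 0 were lower. Over all genes, 21.8% were higher without overlap and 4.81% by at least 2-fold. ZMAT3, an RNA-binding protein downstream of p53, had 238, 208 and 348 CPM in the late state, against 34.7, 29.1 and 24.7 CPM in the early state. TNFRSF10B, a TRAIL death receptor, had 261, 218 and 266 CPM in the late state, against 42.4, 31.6 and 35.9 CPM in the early state. SPATA18, a mitochondrial quality control protein, had 44.5, 33.7 and 55.8 CPM in the late state, against 4.95, 3.63 and 3.62 CPM in the early state. MDM2, the ligase that degrades p53, had 278, 191 and 290 CPM in the late state, against 119, 91.2 and 76.9 CPM in the early state, a narrower gap than in the other 3. Under RA, 4 of the 20 were called higher, or 2 to 3 with 1 RA library left out, against 13.9% of all genes. BTG2, an antiproliferative gene, had 323 and 298 CPM at RA day 21, against 52.6 and 36.0 CPM at RA day 5 (log2 fold change 2.81 ± 0.50, edgeR adjusted p = 0.00406). For ZMAT3 the RA log2 fold change was 2.10 ± 0.73 (edgeR adjusted p = 0.0556, and 0.000213 without both BMP2 day 10 libraries).

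Many matrix genes were higher in the late state. Of 18 collagen genes, 12 were higher without overlap, 8 of them by at least 2-fold, and 0 were lower. The shares of all genes were 21.8% higher without overlap and 4.81% higher by at least 2-fold. COL1A1, a chain of fibrillar type I collagen, had 5200, 5170 and 6420 CPM in the late state, against 1370, 590 and 514 CPM in the early state. COL3A1, the chain of type III collagen, had 7750, 21900 and 19600 CPM in the late state, against 1620, 826 and 836 CPM in the early state. COL16A1, a fibril-associated collagen, had 51.9, 98.9 and 102 CPM in the late state, against 9.51, 5.90 and 4.86 CPM in the early state. The day 10 late-state library was lower than both day 21 libraries for COL3A1 and COL16A1, but not for COL1A1. COL14A1 had 5.21, 98.1 and 88.0 CPM in the late state, against 11.1, 10.9 and 10.8 CPM in the early state, so its day 10 late-state library was under all 3 early-state ones. Counting the day 21 and day 5 libraries alone, 16 of the 18 collagens were higher without overlap, 12 of them by at least 2-fold. In these libraries 1719 of the 19142 genes tested were higher by at least 2-fold. The share of all genes without overlap was not computed for them.

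Of 10 small leucine-rich proteoglycans tested, 5 were higher in the late state without overlap, against 21.8% of all genes. With the day 10 libraries left out, 7 were higher, all by at least 2-fold, against 1719 of the 19142 genes tested. DCN, decorin, had 5.81, 936 and 1050 CPM in the late state, against 0.0381, 0.283 and 0.106 CPM in the early state, which together held 26 counts. ASPN, asporin, had 1.92, 46.8 and 53.7 CPM in the late state, against 0, 0.0629 and 0.177 CPM in the early state. Both were far lower in BMP2 day 10 replicate 2 than at day 21. ASPN lies within the span of CENPP. BGN, biglycan, had 1.12, 5.62 and 8.86 CPM in the late state, against 2.63, 6.41 and 8.09 CPM in the early state, with libraries that overlapped. The summed level of the proteoglycan list was 698 to 6050 CPM in the late state and 178 to 238 CPM in the early state.

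Among 21 matrix glycoproteins, 12 were higher in the late state without overlap and 3 were lower, against 21.8% and 21.1% of all genes. EFEMP1, a fibulin, had 92.1, 96.5 and 118 CPM in the late state, against 10.4, 8.24 and 9.42 CPM in the early state, with the day 10 library at the day 21 level. MFAP4, a microfibril-associated protein, had 30.4, 296 and 296 CPM in the late state, against 23.8, 43.3 and 43.1 CPM in the early state, with the day 10 library at the early level. ELN, elastin, was lower, with 0.671, 0.472 and 0.882 CPM in the late state, against 14.1, 33.1 and 33.4 CPM in the early state. Matrix genes thus differed from each other in whether BMP2 day 10 replicate 2 was at the early or the late level.

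Under RA, 8 of 18 collagens, 3 of 10 proteoglycans and 7 of 21 glycoproteins were called higher, against 13.9% of all genes. Another 2 glycoproteins were called lower, against 14.8% of all genes. With 1 RA library left out the higher counts were as low as 2, 1 and 4, each without RA day 5 replicate 2. COL16A1 had 26.3 and 28.9 CPM at RA day 21, against 0.671 and 0.292 CPM at RA day 5 (log2 fold change 5.86 ± 1.06, edgeR adjusted p = 0.00409). COL6A2, a chain of microfibrillar type VI collagen, had 65.3 and 57.2 CPM at RA day 21, against 16 and 12.4 CPM at RA day 5 (log2 fold change 2.11 ± 0.32, edgeR adjusted p = 0.00243). MFAP4 had 181 and 208 CPM at RA day 21, against 10.5 and 16.1 CPM at RA day 5 (log2 fold change 3.87 ± 0.53, edgeR adjusted p = 0.00178). These 3 calls held without any 1 library, whereas EFEMP1, at 23.3 and 26.4 against 12.2 and 13.0 CPM, was not called (log2 fold change 0.98 ± 0.72, edgeR adjusted p = 0.335). Without both BMP2 day 10 libraries the edgeR adjusted p of EFEMP1 was 0.0152.

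Of 15 TGF-beta response genes, 7 were higher in the late state without overlap and 1 was lower, against 21.8% and 21.1% of all genes. TGFBR2, the type II TGF-beta receptor, had 94.1, 92.7 and 78.8 CPM in the late state, against 20.6, 20.9 and 20 CPM in the early state. LTBP2, a latent TGF-beta binding protein, had 27.9, 30.2 and 44.3 CPM in the late state, against 10.4, 8.05 and 8.14 CPM in the early state. LTBP2 also rose under RA, with 18.1 and 24.1 CPM at day 21, against 3.48 and 2.92 CPM at day 5 (log2 fold change 2.72 ± 0.49, edgeR adjusted p = 0.00406).

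The BMP response list moved the other way, with 11 of 17 genes lower in the late state without overlap, 3 of them by at least 2-fold, and 1 higher. Over all genes, 21.1% were lower and 21.8% higher without overlap. ID1, an inhibitor of basic helix-loop-helix factors and a direct SMAD target, had 65.0, 29.7 and 23.3 CPM in the late state, against 76.9, 119 and 114 CPM in the early state. DLX5, a homeobox factor, had 5.88, 2.55 and 4.09 CPM in the late state, against 35.6, 87.5 and 91.7 CPM in the early state. BMPER, a secreted BMP modulator, had 7.96, 1.72 and 2.16 CPM in the late state, against 16.1, 19.1 and 21.0 CPM in the early state. ID3, another inhibitor of these factors, had 153, 38.6 and 53.6 CPM in the late state, against 83.7, 81.6 and 87.9 CPM in the early state, with BMP2 day 10 replicate 2 the highest library.

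Under RA, ID1 had 108 and 101 CPM at day 21, against 119 and 61.7 CPM at day 5 (log2 fold change 0.21 ± 0.35, edgeR adjusted p = 0.681), and the sign turned without RA day 5 replicate 2. ID3 had 370 and 338 CPM at RA day 21, against 107 and 48.3 CPM at RA day 5 (log2 fold change 2.19 ± 0.40, edgeR adjusted p = 0.00433). The day 21 against day 5 change of ID3 differed between BMP2 and RA by -3.03 ± 0.56 on the log2 scale (edgeR adjusted p = 0.0298), a call that 7 of its alternatives ended.

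Stem-cell and amnion-like genes were lower in the late state. Of 20 pluripotency genes, 15 were lower without overlap, 11 of them by at least 2-fold, and 0 were higher. Over all genes, 21.1% were lower without overlap and 4.23% by at least 2-fold. NANOG, a core pluripotency factor, had 0.916, 0.534 and 0.630 CPM in the late state, against 9.23, 12.9 and 14.3 CPM in the early state. POU5F1, which encodes OCT4, had 1.52, 2.42 and 4.11 CPM in the late state, against 47.8, 84.7 and 110 CPM in the early state. Untreated cells had 220 and 279 CPM of NANOG and 1010 CPM of POU5F1 in each library, so the early state was already below them. Under RA, 19 of the 20 were called lower, against 14.8% of all genes, and fewer with any 1 RA library left out. NANOG had 0.344 and 0.0539 CPM at RA day 21, against 12.6 and 19.1 CPM at RA day 5 (log2 fold change -6.33 ± 1.18, edgeR adjusted p = 0.00458).

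Of 14 trophoblast and amnion genes, 12 were lower in the late state without overlap, 10 of them by at least 2-fold. The shares of all genes were 21.1% without overlap and 4.23% by at least 2-fold. GABRP, a GABA receptor subunit of amnion-like cells, had 5.25, 11.6 and 10.1 CPM in the late state, against 174, 537 and 577 CPM in the early state, although another gene covers 49.9% of its span. TFAP2C, a trophoblast and germ-cell factor, had 3.55, 1.89 and 0.945 CPM in the late state, against 28.9, 44.6 and 47.9 CPM in the early state. The 2 genes had unlike levels in the other libraries. Untreated cells had 3.18 and 1.68 CPM of GABRP and 33.3 and 40.3 CPM of TFAP2C. Under RA, 5 of the 14 were called lower, against 14.8% of all genes, and fewer with any 1 RA library left out. TFAP2C had 0.478 and 1.08 CPM at RA day 21, against 41.4 and 30.3 CPM at RA day 5 (log2 fold change -5.52 ± 1.06, edgeR adjusted p = 0.00514, and 0.0516 without RA day 21 replicate 1). VTCN1 had 1.14 and 0.728 CPM at RA day 21, against 1.59 and 1.81 CPM at RA day 5 (log2 fold change -0.87 ± 1.78, edgeR adjusted p = 0.744).

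Epithelial genes were divided. Of 17, 9 were lower in the late state without overlap, 7 of them by at least 2-fold, and 1 was higher. Over all genes, 21.1% were lower and 21.8% higher without overlap, and 4.23% were lower by at least 2-fold. EPCAM, an epithelial adhesion molecule, had 19.9, 11.5 and 9.45 CPM in the late state, against 128, 226 and 194 CPM in the early state. CLDN4, a tight junction claudin, had 0.983, 0.575 and 0.168 CPM in the late state, against 13.5, 36.0 and 38.2 CPM in the early state. KRT8, a keratin of simple epithelia, had 5500, 3120 and 3170 CPM in the late state, against 4520, 3620 and 4320 CPM in the early state, so its libraries overlapped.

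Markers of other cell types that the cultures could hold were checked in the same way. Of 18 smooth muscle genes, 1 was higher and 4 were lower in the late state without overlap, against 21.8% and 21.1% of all genes. The summed level of this list was 4290 to 9900 CPM in the late state and 6340 to 9510 CPM in the early state. MYH11, the smooth muscle myosin heavy chain, had 1.52, 0.780 and 0.693 CPM in the late state, against 15.3, 8.02 and 6.42 CPM in the early state. MYOCD, the cofactor that switches on smooth muscle genes, had 27.8, 8.85 and 18.0 CPM in the late state, against 91.9, 61.7 and 57.4 CPM in the early state. TAGLN, an actin-binding protein, had 884, 316 and 202 CPM in the late state, against 715, 384 and 449 CPM in the early state. MYH11 and MYOCD were thus lower in the late state, and the libraries of TAGLN overlapped. SYNPO2, the 1 gene of the list higher without overlap, had 22.6, 103 and 63.0 CPM in the late state. In the early state it had 3.44, 12.3 and 11.7 CPM. MYH11 had 1.55 and 1.44 CPM at RA day 21, against 2.66 and 1.44 CPM at RA day 5 (log2 fold change -0.45 ± 0.61, edgeR adjusted p = 0.606), and its sign turned without RA day 5 replicate 1.

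Of 23 cardiac muscle genes, 5 were higher and 6 lower in the late state without overlap, against 21.8% and 21.1% of all genes. TNNT2, cardiac troponin T, had 241, 204 and 172 CPM in the late state, against 126, 27.2 and 38.2 CPM in the early state. HAND1, a factor of heart and extraembryonic mesoderm, had 176, 84.8 and 64.9 CPM in the late state, against 484, 566 and 609 CPM in the early state. Of 16 skeletal muscle genes tested, 4 were higher and 4 lower against the same shares of all genes, with a summed level of 71.4 to 115 CPM in the late state and 48.7 to 81.9 CPM in the early state.

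Of 18 neural progenitor genes, 8 were lower and 2 higher in the late state without overlap, against 21.1% and 21.8% of all genes. MSI1, an RNA-binding protein of neural stem cells, had 2.55, 3.24 and 2.75 CPM in the late state, against 22.0, 31.9 and 31.8 CPM in the early state. Of 18 neuronal genes, 5 were higher and 5 lower, against 21.8% and 21.1% of all genes. In each direction 4 of them reached 2-fold between the nearest libraries, and the list median was -0.40 on the log2 CPM scale. SCG2 and SYT1 were among the higher ones. SCG2, a granin of secretory granules, had 49.9, 336 and 428 CPM in the late state, against 2.76, 1.64 and 1.56 CPM in the early state. SYT1, a calcium sensor of synaptic vesicles, had 36.4, 84.5 and 49.5 CPM in the late state, against 10.8, 7.67 and 8.02 CPM in the early state. In both genes day 10 replicate 2 was the lowest late-state library.

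The summed level of 9 endothelial genes was 149 to 379 CPM in the late state and 130 to 251 CPM in the early state, and that of 8 blood genes 49.1 to 74.8 CPM and 79.1 to 149 CPM. Of 11 bone and cartilage genes, 7 were lower in the late state without overlap, against 21.1% of all genes, and 0 were higher. The list of 12 mesenchymal stroma genes summed to 395 to 430 CPM in the late state and 427 to 514 CPM in the early state. Of these 12, 3 were higher and 1 lower without overlap, against 21.8% and 21.1% of all genes. Of 17 inflammatory secreted genes, 7 were higher and 1 lower, against the same shares. ICAM1, an adhesion molecule, had 19.2, 25 and 34.5 CPM in the late state, against 0.647, 0.770 and 1.21 CPM in the early state. H19, an imprinted noncoding RNA, had 4230, 11000 and 6690 CPM in the late state, against 1350, 664 and 784 CPM in the early state. SLC2A3, the glucose transporter of the glycolysis list, had 604, 687 and 515 CPM in the late state, against 2370, 2200 and 2260 CPM in the early state. The part of other cell types in the matrix and interferon results was not tested.

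**Figure D4:**
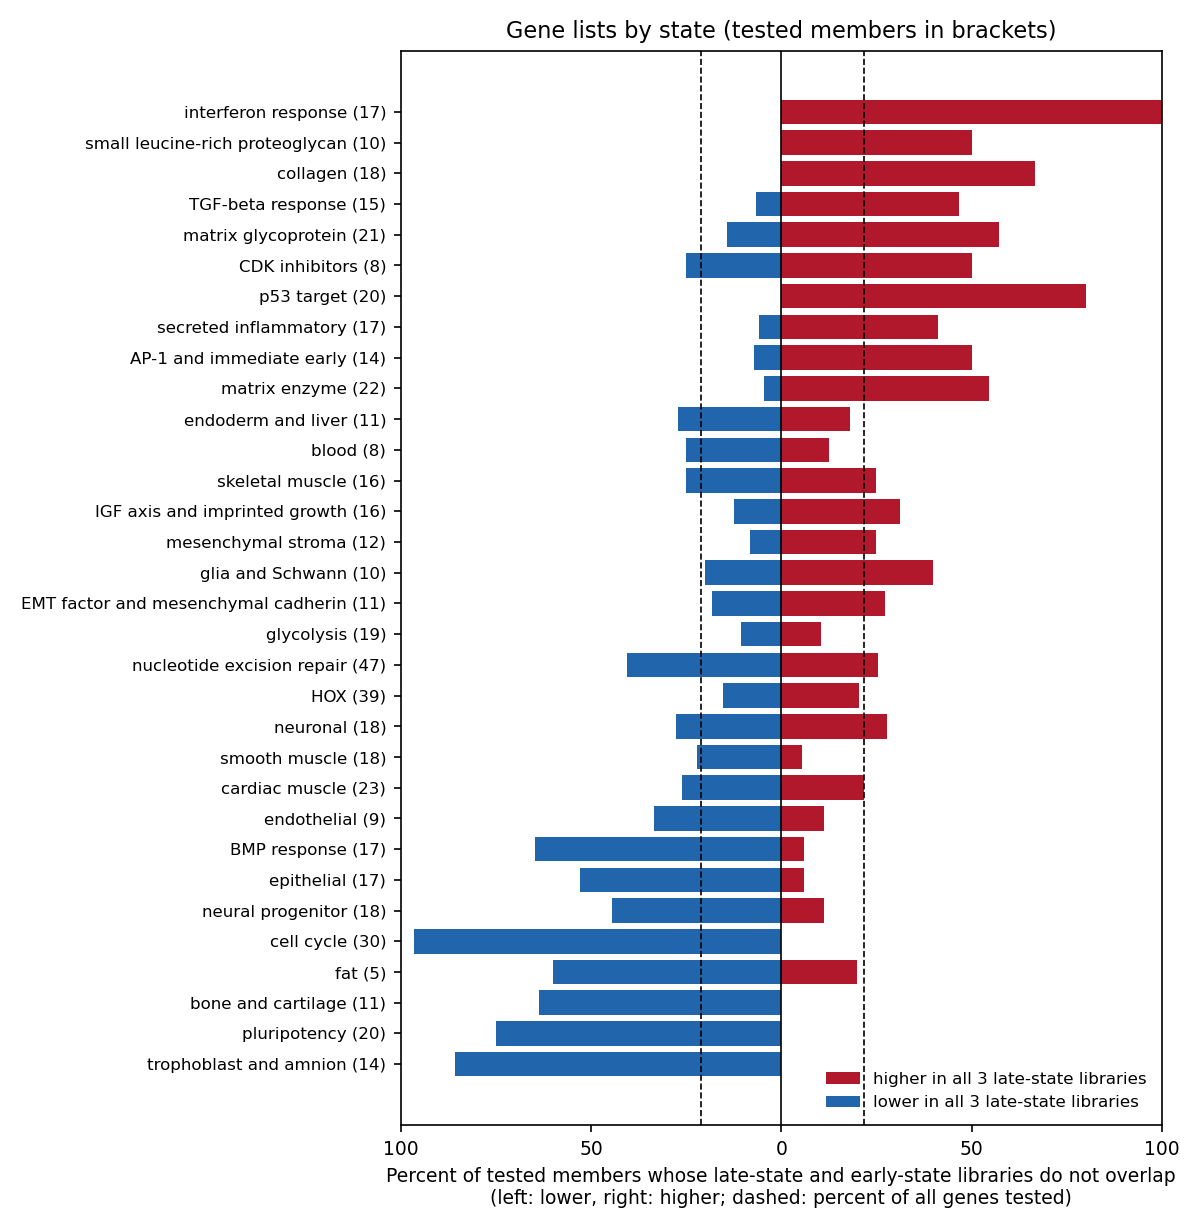
Share of the tested members of each gene list that were higher (right) or lower (left) in all 3 late-state libraries than in any early-state library, in percent, with lists ordered by their median difference. Dashed lines mark 21.8% and 21.1%, the shares over all 19142 genes. The interferon list is entirely on the right, and 29 of 30 cell cycle genes are on the left.

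Of 47 genes of NER, the pathway the study was about, 12 were higher and 19 lower in the late state without overlap, against 21.8% and 21.1% of all genes. Only 1 in each direction reached 2-fold between the nearest libraries. DDB2, which recognises ultraviolet lesions and is a p53 target, had 30.1, 24.6 and 35.5 CPM in the late state, against 10.4, 6.12 and 6.67 CPM in the early state. ERCC6, a factor of transcription-coupled repair, had 21.1, 31.8 and 44.8 CPM in the late state, against 15.8, 18.1 and 16.3 CPM in the early state. UVSSA, another factor of that branch, had 26.8, 31.4 and 29.9 CPM in the late state, against 19.9, 19.1 and 19 CPM in the early state. XPC, which recognises lesions in the whole genome, had 99.6, 82.2 and 104 CPM in the late state, against 83.9, 90.6 and 101 CPM in the early state, and did not separate the states. The lower NER genes included those shared with replication. POLE, the catalytic subunit of polymerase epsilon, had 55.4, 61.8 and 40.0 CPM in the late state, against 145, 125 and 117 CPM in the early state. POLE2, another subunit, had 2.59, 2.77 and 1.81 CPM in the late state, against 10.4, 7.74 and 8.44 CPM in the early state.

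Under RA, 4 of the 47 NER genes were called higher and 17 lower, against 13.9% and 14.8% of all genes. Fewer were called in both directions with any 1 RA library left out. POLE had 64.6 and 55.4 CPM at RA day 21, against 199 and 195 CPM at RA day 5 (log2 fold change -1.72 ± 0.32, edgeR adjusted p = 0.00453). DDB2 had 18.6 and 23.3 CPM at RA day 21, against 17.4 and 18.4 CPM at RA day 5 (log2 fold change 0.23 ± 0.53, edgeR adjusted p = 0.777).

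RA shares no library with the states, so its day 21 against day 5 comparison was read over all 1730 state genes. Of the 920 genes higher in the late state, 323 were called higher under RA (35.1%) and 16 lower (1.74%), against 13.9% and 14.8% of all genes. Of the 810 genes lower in the late state, 286 were called lower (35.3%) and 13 higher (1.60%). The median RA log2 fold change was 1.87 for the higher and -1.78 for the lower state genes, and 0.05 over all genes. The shared spread of the RA test includes the BMP2 libraries. RA calls numbered 5503 with all libraries and 7337 without both of BMP2 day 10. State genes were chosen with a gap of at least 2-fold between the BMP2 day 10 libraries, which the fit treats as replicates. Their spread is thus raised by the choice, and their shares of calls cannot be set level with those of all genes. This also holds for state genes within the lists and in the other comparisons of this fit. Their shares without both BMP2 day 10 libraries are not given here, and the medians do not rest on calls.

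**Figure D5:**
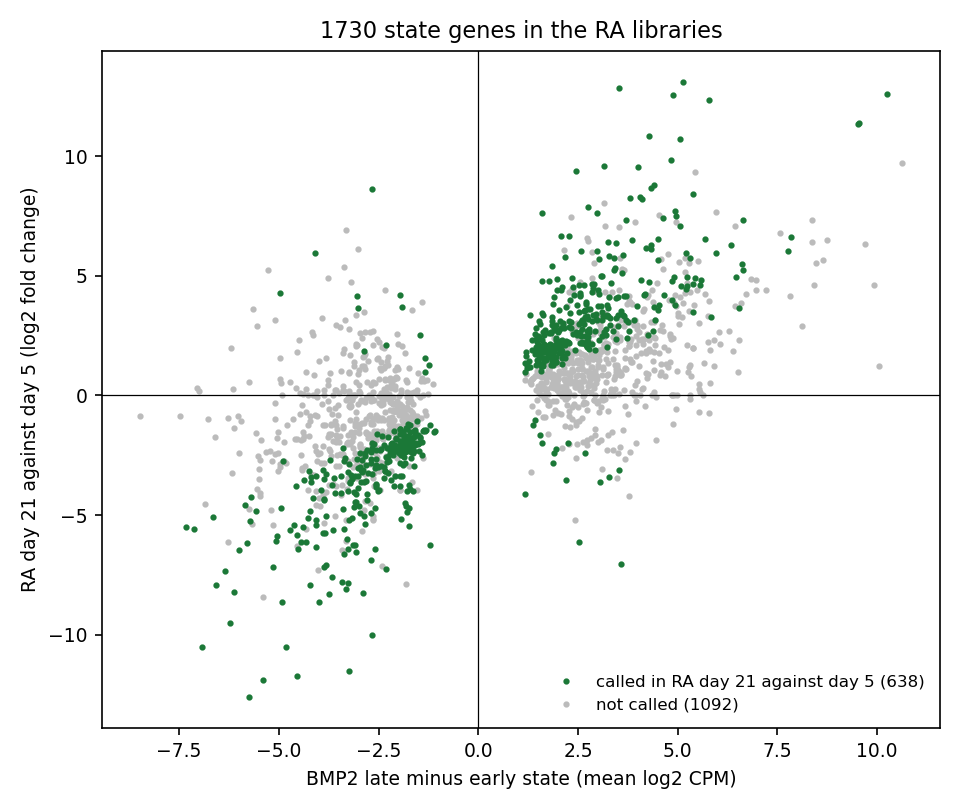
Log2 fold change of RA day 21 against day 5 (vertical) over the mean log2 CPM difference of late minus early state under BMP2 (horizontal), with 1 point per gene for 1730 state genes. Green points are called under RA, and most lie at the lower left or upper right, with medians of -1.78 and 1.87 over all genes lower and higher in the late state.

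The labelled comparison of BMP2 day 21 against day 5 uses 4 of the 6 libraries, so its calls follow from the rule in part. edgeR called 1488 genes higher (7.77%) and 1483 lower (7.75%). Among the state genes, 504 of the 920 higher and 362 of the 810 lower ones were called in the same direction. By list, it called 27 of 30 cell cycle genes lower, 11 of 20 pluripotency genes lower, and 7 of 14 trophoblast and amnion genes lower. Of the 47 NER genes it called 3 higher and 13 lower. Called higher were 7 of 20 p53 targets, 6 of 18 collagens, 6 of 10 proteoglycans and 3 of 17 interferon genes. These calls rest on few libraries: 1 gene was called without BMP2 day 5 replicate 1, 992 without day 5 replicate 2, 878 without day 21 replicate 1 and 91 without day 21 replicate 2. With 1 of these libraries left out, all of these list counts reached 0 at their lowest. With both day 10 libraries left out of the spread, 5412 genes were called, 2662 higher and 2750 lower. The interferon count became 14 of 17, and the NER counts became 7 higher and 18 lower. These list counts are thus not to be set against 7.77% and 7.75%.

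The day 21 against day 5 change differed between BMP2 and RA for 179 genes in which BMP2 was higher (0.935%) and 135 in which it was lower (0.705%). limma on log2(RPKM + 1) split these otherwise, at 249 and 437. Of the 920 and 810 state genes, 16 and 14 were called with the sign of their state, and 0 and 1 with the other sign. This test uses the BMP2 day 21 and day 5 libraries that also chose the state genes. These signs thus follow from the choice in part. F5, COL14A1 and IRAG1 were among all genes called, but were not 2-fold apart between the nearest libraries of the states. They were named by rules that use their BMP2 day 21 against day 5 change. That change enters this test, so a larger change under BMP2 is in part built in. The change of F5 was 3.48 ± 0.54 larger on the log2 scale under BMP2 (edgeR adjusted p = 0.0175). That of COL14A1 was 2.48 ± 0.46 larger (edgeR adjusted p = 0.0316). That of IRAG1, a regulator of calcium release in smooth muscle, was lower by -3.52 ± 0.59 (edgeR adjusted p = 0.0218). Each of these 3 calls ended without BMP2 day 5 replicate 1 and without 5 or more of the other 7 libraries compared, taken singly.

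The libraries of a state were not alike either. In the late state, 2309 genes (12.1%) in BMP2 day 10 replicate 2 were at least 2-fold apart from both others, against 1543 (8.06%) in day 21 replicate 1 and 1361 (7.11%) in day 21 replicate 2. In the early state, it was day 5 replicate 1 that stood apart, with 2329 genes (12.2%), against 969 (5.06%) in day 5 replicate 2 and 1024 (5.35%) in day 10 replicate 1. The early-state library of day 10 correlated at 0.981 with day 5 replicate 2, against 0.971 between the day 5 libraries. Without BMP2 day 10 replicate 2, the states were at least 2-fold apart for 2621 genes in place of 1730, and without BMP2 day 5 replicate 1 for 2705.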

How the data were processed

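Total RNA of NT2 cells was sequenced, and titles gave the groups. One deposited table has unnormalised counts for 25952 genes, made by the authors with tools among which the submitters' processing notes list featureCounts, STAR and DESeq2, on build hg19. Another deposited table has the authors' RPKM, scaled by the whole gene span for 89.0% of 5814 genes checked to within 1%, so it was used in alternatives alone. Between 66.0% and 73.5% of counts from 1 to 19 were even, so both reads of a pair may be counted, and reads in introns or overlapping genes may be included. The sources used here do not say whether counting used strand.

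The members and gene lists were chosen with earlier results of these data known. Symbols came from a gene name list (25214 identifiers). edgeR 4.0.16 in R 4.3.3 was fitted to all 14 libraries with a mean per labelled group, quasi-likelihood F tests, TMM factors and the filterByExpr filter (minimum count 10), with p adjusted by Benjamini-Hochberg over 19142 genes, which held 99.99% of the counts, and calls at 0.05. Log2 CPM used a prior count of 2. Alternatives used limma 3.58.1 on log2(RPKM + 1) and log2(RPKM + 0.1), DESeq2 1.42.0, other filters and factors, a replicate block and libraries left out. Scripts were tested on simulated data. Genes named were the 3 markers, the 10 widest gaps per direction, up to 4 members per list called in BMP2 day 21 against day 5, NER genes and genes out of step at day 10, of which not all are described, and 1 gene of the interferon list is not reported here. BGN, CDC20, COL1A1, COL3A1, EPCAM, HAND1, ID3, ISG15, KRT8, MDM2, OAS3, TAGLN, TNNT2 and XPC were named after their values were seen. Tables and figures used pandas 2.3.3, matplotlib 3.10.9 and NumPy 2.4.6 in Python 3.11.15.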

Additional observations from a re-analysis of the deposited data

Results flagged for a closer look

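The day 21 against day 5 change differed between BMP2 and RA, by edgeR's test of the difference itself, for 4 of the genes described. F5, COL14A1 and IRAG1 were named by rules that use their BMP2 change, which enters this test. ID3 was named after its values were seen. F5 changed by 3.48 ± 0.54 more under BMP2 on the log2 scale (SE, 2 libraries a group, edgeR adjusted p = 0.0175), with 82.2 and 76.2 CPM at BMP2 day 21, against 1.90 and 2.42 CPM at BMP2 day 5. COL14A1 changed by 2.48 ± 0.46 more (edgeR adjusted p = 0.0316), with 66.7 and 48.4 CPM at RA day 21, against 40.4 and 35.4 CPM at RA day 5. ID3 differed by -3.03 ± 0.56 (edgeR adjusted p = 0.0298) and IRAG1 by -3.52 ± 0.59 (edgeR adjusted p = 0.0218), and IRAG1 overlaps IRAG1-AS1 and LYVE1 over 31.9% of its span. These differences are those of single genes among 314 called, and each lost its call under 6 to 8 of its alternatives, all of them with 1 library left out.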

How the results depend on the processing

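The number of genes at least 2-fold apart between the states was 1730, and 1960 to 2705 with 1 library left out, 3011 without both BMP2 day 10 libraries, 611 at 4-fold and 212 on log2(RPKM + 1). BMP2 day 21 against day 5 called 2971 genes, and 1 to 5306 with 1 library left out, 5412 without both BMP2 day 10 libraries and 5203 in DESeq2. RA day 21 against day 5 called 5503 genes, 1913 to 7209 with 1 library left out and 8884 in a fit of its own 4 libraries. The difference between the treatments called 314 genes, 3 to 1509 with 1 library left out, 614 without the low-count filter, 1540 without both BMP2 day 10 libraries, 1265 in the libraries compared, 686 in limma on log2(RPKM + 1) and 1865 in DESeq2. With a replicate block the 3 comparisons called 2475, 5079 and 258 genes. Replicate numbers were treated as names only, since deviations of same-numbered libraries correlated at 0.01 under BMP2 and -0.08 under RA. The causes of these differences were not tested. Of 28 genes tested under RA, 15 were called, 14 of them in every alternative, and 6 were called in none. The log2 fold change of ID1 ran from -0.21 without RA day 5 replicate 2 to 0.76 without RA day 5 replicate 1, and that of MYH11 from -0.85 to 0.06. Median positions of the day 10 libraries on other scales, added after the data were seen, were 0.77 to 0.81 for replicate 2 and -0.03 to -0.02 for replicate 1. With 2 libraries a group, smaller changes can be missed.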

Other observations

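Other lists were counted between the states in the same way. Their counts without overlap are to be set against 21.8% higher and 21.1% lower over all genes. Of 22 matrix enzymes, 12 were higher in the late state without overlap and 1 was lower, with a summed level of 4350 to 5290 CPM in the late state and 2960 to 3410 CPM in the early state. Of 14 AP-1 and immediate early genes, 7 were higher and 1 was lower, none of them by 2-fold between the nearest libraries. Of 39 HOX genes, 8 were higher and 6 lower, against 21.8% and 21.1% of all genes. Of 19 glycolysis genes, 2 were higher and 2 lower in the late state, while 12 were called lower under RA by edgeR (8 to 10 with 1 RA library left out), against 14.8% of all genes. BMP2 day 10 replicate 2 held 260 genes at least 2-fold above every day 5 and day 21 library and 492 below, against 182 and 288 in replicate 1.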
